A study of Mus musculus with 6 samples.

Results

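Fatty acids reach a cell in steps, and 10 genes of those steps were followed here in the whole sciatic nerve of mice lacking Srebf-1c and of wild-type mice: the binding protein genes Fabp3, Fabp4, Fabp5 and Fabp7, the surface receptor gene Cd36, the transport protein genes Slc27a1, Slc27a3 and Slc27a4, the lipase gene Lpl and its inhibitor gene Angptl4. They were chosen by name, each through probe sets that carry its symbol alone, with the probe set of highest mean taken where a gene had several. All 10 were found among the 22180 genes tested. The wild-type group held 3 samples and the Srebf-1c KO group 3 samples, each hybridised to 1 whole-transcript Affymetrix array. Both groups were 10 months old, the wild-type mice being littermates of the knockouts. The labels give no sex, strain or number of mice per sample, nor do they say that each sample came from another mouse, so a p-value here reflects only how far these arrays scatter, part of which may be technical. Which part of the gene was removed is not stated either, and the knockout is not tied to 1 cell type in the labels.

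Lipoprotein lipase, the product of Lpl, sits on the capillary wall and frees fatty acids from circulating triglyceride, and Angptl4 shuts it off. CD36 and the Slc27 proteins help the acids across the membrane, the Slc27 proteins by joining them to coenzyme A, and the small cytosolic Fabp proteins then carry them through the cell. In nerve the acids serve Schwann cells that build and maintain myelin, but most of these genes are best known from fat, muscle, capillaries and macrophages, all of which can lie in or beside a dissected nerve.

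The targeted gene Srebf1 had log2 intensities of 9.53, 9.55 and 9.70 on the wild-type arrays against 8.11, 8.06 and 8.04 on the KO arrays, and was the 1 gene of 22180 past an adjusted p of 0.05 (limma, log2 fold change -1.52 ± 0.11 SE, adjusted p = 0.0497). The call was marginal. The adjusted p was 0.713 with the replicate block, 0.308 by the methods' own test and 0.0594 and 0.0842 with the arrays rescaled. It was 0.161 to 0.265 with a marker score as covariate and 0.255 to 0.764 with each array left out. Without the array highest in fat cell markers in each genotype it was 0.472. The remaining limma fits kept the call, at 0.0198 with an intensity trend and robust prior and 0.0346 with array weights. With dim genes filtered out it was 0.0362 and 0.0203, and with probe set means 0.0466. The log2 fold change stayed between -1.56 and -1.46. Its single probe set is annotated to the gene, not to its 1c form, and where it lies relative to the deletion is not known. Genes of myelinating Schwann cells were bright, with Pmp22 between 13.44 and 13.67, and the mean of 12 such markers stayed within -0.16 to 0.20 of its level over the 6 arrays on the log2 scale. Tissue beside the nerve varied more. The adipocyte score, which averages 18 fat cell genes after centring each on its own level, stood at -0.71, -0.31 and 1.39 on the wild-type arrays against -0.70, 1.20 and -0.88 on the KO arrays. A score built likewise from 25 genes of skeletal muscle stood at 0.83, -0.95 and -0.25 on the wild-type arrays against 0.40, -0.38 and 0.36 on the KO arrays. None of the 10 genes is in a marker list. Since the samples are bulk tissue, fewer cells of a type and less RNA per cell cannot be told apart.

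None of the 10 genes passed an adjusted p of 0.05 in limma, against 0.00451% of all genes, and the smallest adjusted p among them was 0.85. At an unadjusted p under 0.05 there was 1 of 10, Fabp3, where 5.83% of all genes lay, and the methods' own test, fitted to each gene alone, gave 0 at either limit. By the study's criterion, which joins an unadjusted p under 0.05 to a 1.5-fold difference or more, 0 of 10 qualified, against 1.19% of all genes. In 1 of 10, Slc27a1, every KO array lay above every wild-type array, as in 4.08% of all genes, and in 0 of 10 did every KO array lie below, as in 8.21% of all genes (12.3% in either direction). The mean was higher in KO for 6 of 10 and lower for 4, with a median log2 fold change of 0.20, beside a median of -0.03 and 43.1% with a higher mean over all genes. The sign of this median rested on single arrays: it was -0.12 without KO replicate 2, -0.05 without wild-type replicate 1 and -0.04 without wild-type replicate 2.

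**Figure D1:**
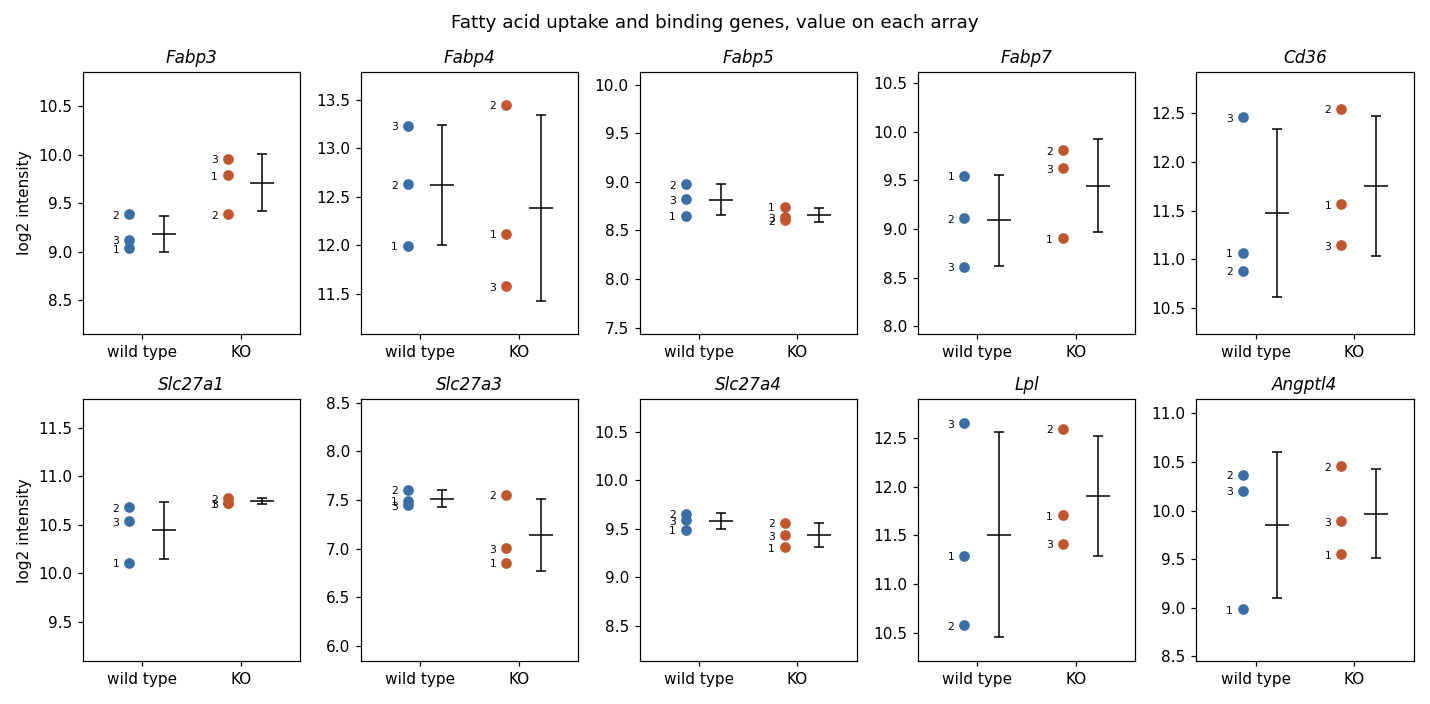
Log2 intensity of the 10 genes on each array (points, numbered by replicate), with the mean and SD of each genotype (bars, n = 3); every panel spans the same range on the log2 scale. Lpl, Cd36 and Fabp4 spread widely within a genotype, whereas Fabp5 and Slc27a4 stay within 0.37 and 0.35 over all 6 arrays.

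Fabp3 encodes the heart-type binding protein, which carries fatty acids to mitochondria in heart and oxidative muscle. The 6 log2 intensities were 9.04, 9.39 and 9.12 on the wild-type arrays (9.18 ± 0.18, SD, n = 3) against 9.79, 9.39 and 9.96 on the KO arrays (9.71 ± 0.29, SD, n = 3). KO replicates 1 and 3 lay above every wild-type array, while KO replicate 2 was level with the highest of them, so the groups touched. The log2 fold change was 0.53 ± 0.18 (SE), a 1.44-fold higher mean with a 95% interval of 1.07 to 1.94 (limma, unadjusted p = 0.0221, adjusted p = 0.85). The direction held with each array left out, at 0.40 to 0.69. A second, dimmer probe set of Fabp3 gave 0.18 ± 0.21 (SE), with KO values of 6.64, 6.07 and 6.46 inside or just above the wild-type values of 6.47, 5.84 and 6.32. The difference was thus seen in the brighter set. A pseudogene of Fabp3 is listed in the RefSeq table, and whether probes of either set also measure it was not tested.

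The factor encoded by Srebf1 is known to bind sterol regulatory elements and E-boxes, and the nuclear receptors that drive many fatty acid uptake genes bind repeats of AGGTCA, so RefSeq promoter windows (GRCm38.p6) were searched on both strands for these letters over the 250 bases before the start. Windows were listed for 6 of the 10 genes: Fabp3, Fabp7, Cd36, Slc27a3, Slc27a4 and Slc27a1, the last with 3 starts. The 3 printed here are those of the gene with the smallest p, of the gene whose groups did not overlap and of Cd36. The second is shown at its start with a CACGTG match, and Cd36 was highest on the arrays highest in fat markers. Capitals mark E-boxes (CANNTG), and in Cd36 also the match to AGGTCA, which lies on the opposite strand. The lines are Fabp3 at chr4:130308488-130308737 (plus strand), Slc27a1 at chr8:71570344-71570593 (plus strand) and Cd36 at chr5:17835897-17836146 (minus strand).
Fabp3: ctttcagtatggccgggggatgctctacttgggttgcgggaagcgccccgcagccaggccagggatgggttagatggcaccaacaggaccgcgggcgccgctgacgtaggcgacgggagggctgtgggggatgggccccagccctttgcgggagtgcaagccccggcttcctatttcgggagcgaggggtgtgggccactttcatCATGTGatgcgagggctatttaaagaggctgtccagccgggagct
Slc27a1: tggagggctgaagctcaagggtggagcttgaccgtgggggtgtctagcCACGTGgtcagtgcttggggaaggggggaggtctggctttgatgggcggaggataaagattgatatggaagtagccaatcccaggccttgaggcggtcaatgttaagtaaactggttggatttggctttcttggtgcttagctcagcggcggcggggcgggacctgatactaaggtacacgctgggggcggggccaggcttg
Cd36: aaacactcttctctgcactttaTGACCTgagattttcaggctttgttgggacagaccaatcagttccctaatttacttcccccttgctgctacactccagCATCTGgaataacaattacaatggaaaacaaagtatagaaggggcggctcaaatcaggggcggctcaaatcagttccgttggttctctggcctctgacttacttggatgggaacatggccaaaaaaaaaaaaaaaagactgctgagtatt
The E-box of Fabp3 begins 45 bases before the start, that of Cd36 150 bases and the CACGTG of Slc27a1 202 bases. CANNTG occurs in 66.2% of all 32851 windows and CACGTG, one form of it, in 6.02%. The single AGGTCA was found in the windows of Cd36 and Fabp7 and in 14.0% of all windows. The sterol regulatory element TCACNCCAC, in 1.05% of all windows, and the direct repeat of AGGTCA with 1 base between its copies, in 0.0335%, were in none of the windows of these 6 genes. A match is a description of the letters and not a site shown to be bound.

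Fabp3 is a muscle gene, so the muscle markers stand beside it. The highest muscle score, 0.83, was that of wild-type replicate 1, the array with the lowest Fabp3. Ckm, the muscle creatine kinase gene, was 13.50, 11.88 and 12.89 on the wild-type arrays against 13.30, 12.37 and 12.69 on the KO arrays, with broad overlap. Genes of oxidative fibres, where Fabp3 is most used, differed more: myoglobin, Mb, stood at 10.88, 8.70 and 8.88 on the wild-type arrays against 10.74, 9.41 and 10.86 on the KO arrays. KO replicates 1 and 3, highest in Fabp3, were thus also high in Mb, as was wild-type replicate 1, where Fabp3 was lowest. Actn2, a protein of the muscle Z-disc, was 11.78, 9.13 and 9.32 on the wild-type arrays against 12.19, 9.92 and 12.10 on the KO arrays, and Myh2, the myosin of fast oxidative fibres, was 11.13, 8.72 and 8.82 against 11.42, 9.06 and 11.59. Both were highest on KO replicates 1 and 3, as Fabp3 was, with log2 fold changes of 1.33 ± 0.85 (SE) for Actn2 and 1.13 ± 0.85 for Myh2. Tnnc1, the troponin of slow fibres and heart, was lowest on KO replicate 1, at 8.09, against 11.45 on wild-type replicate 1 and 11.57 on KO replicate 3. The 6 oxidative fibre genes, Mb, Actn2, Myh2, Tnnc1, Myh7 and Tnnt1, are also among the 25 muscle markers, so the 2 lists are not separate. Their smallest log2 fold changes were 0.11 ± 0.85 (SE) for Tnnt1 and 0.14 ± 1.07 for Tnnc1. All 6 had a higher mean in KO, with a median of 0.67, and all 6 overlapped between genotypes. Their summed level ran from 10.96 to 13.61 in wild type and from 11.65 to 13.90 in KO on the log2 scale. Of 25 muscle markers 18 had a higher mean in KO and 7 a lower one, down to -0.23, with a median of 0.18. All 25 overlapped between genotypes, and their summed level ran from 16.03 to 17.47 in wild type and from 16.60 to 17.36 in KO on the log2 scale. With the muscle score as a covariate the log2 fold change of Fabp3 was 0.53 ± 0.19 (SE, limma adjusted p = 0.725), and with the score of the 6 oxidative fibre genes, which were picked after the values were seen, it was 0.51 ± 0.20 (adjusted p = 0.887). The part of muscle was not tested otherwise.

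Fabp4 encodes the adipocyte binding protein, which is also made by capillary endothelium and macrophages. The 6 log2 intensities were 12.00, 12.63 and 13.23 on the wild-type arrays (12.62 ± 0.62, SD, n = 3) against 12.12, 13.45 and 11.58 on the KO arrays (12.38 ± 0.96, SD, n = 3). The KO arrays held both its highest and its lowest value. The fitted log2 fold change was -0.24 ± 0.50 (SE), with a 95% interval from 0.374 to 1.93 of the wild-type level (limma, adjusted p = 0.97). The value turned to 0.07 without wild-type replicate 3 and to 0.17 without KO replicate 3, and was -0.77 without KO replicate 2. The highest values of Fabp4 were on wild-type replicate 3 and KO replicate 2, the arrays with the highest adipocyte scores. The lowest, on KO replicate 3, went with the lowest adipocyte score and with the lowest endothelial score, -0.43 over 15 genes. Of those capillary markers 14 had a lower mean in KO and 1 a higher one, where 43.1% of all genes had a higher mean, with a median of -0.19. In Kdr every KO array lay below wild type, as in 8.21% of all genes. The other 14 of 15 overlapped, and the summed level of the 15 ran from 13.46 to 13.93 in wild type and from 13.19 to 13.79 in KO on the log2 scale.

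Cd36, the fatty acid receptor of fat, muscle, capillaries and macrophages, had log2 intensities of 11.07, 10.88 and 12.46 on the wild-type arrays (11.47 ± 0.86, SD, n = 3) against 11.56, 12.55 and 11.14 on the KO arrays (11.75 ± 0.72, SD, n = 3). Wild-type replicate 3 and KO replicate 2 stood nearly alike and well above the other 4 arrays. Its log2 fold change was 0.28 ± 0.50 (SE, 95% interval -0.89 to 1.45, limma adjusted p = 0.962). It ranged from -0.12 without KO replicate 2 to 0.78 without wild-type replicate 3, so its direction rested on single arrays.

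Lpl showed the widest range of the 10 genes, 2.08 on the log2 scale, all of it within wild type. The 6 log2 intensities were 11.29, 10.58 and 12.65 on the wild-type arrays (11.51 ± 1.06, SD, n = 3) against 11.71, 12.60 and 11.41 on the KO arrays (11.91 ± 0.62, SD, n = 3). All 3 KO values lay inside the wild-type range. The fitted log2 fold change was 0.40 ± 0.54 (SE, 95% interval -0.86 to 1.66, limma adjusted p = 0.945), and the dimmer probe set of Lpl gave 0.37 ± 0.55 (SE). It was 0.97 without wild-type replicate 3 and -0.06 without wild-type replicate 2.

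Within each genotype the 3 genes were thus highest on the array with the highest adipocyte score. Their lowest arrays did not all follow that score. Cd36 and Lpl were lowest on wild-type replicate 2, at -0.73 and -1.13 from their own means. The adipocyte score there, -0.31, was above that of wild-type replicate 1 and of KO replicates 1 and 3. The muscle and oxidative fibre scores were lowest on that array, at -0.95 and -1.28. Adipoq, the adiponectin gene that defines fat cells, was 7.09, 7.71 and 9.98 on the wild-type arrays against 6.99, 10.05 and 7.09 on the KO arrays. The lipid droplet gene Plin1 was 8.29, 9.12 and 11.25 on the wild-type arrays against 7.69, 10.83 and 7.74 on the KO arrays. Some fat markers went otherwise. Slc36a2, the brightest of them, was 11.75, 12.09 and 11.92 on the wild-type arrays against 11.93, 11.82 and 11.93 on the KO arrays. Slc2a4 was 10.56, 8.90 and 10.12 on the wild-type arrays against 10.955, 9.97 and 10.20 on the KO arrays. Gpd1 was highest in KO on replicate 1, at 10.63, although over all arrays it was highest on wild-type replicate 3, at 11.11. Of 18 fat cell markers 13 had a lower mean in KO with a median of -0.22, all 18 overlapped, and their summed level ran from 13.85 to 15.53 in wild type and from 13.77 to 15.37 in KO on the log2 scale. The macrophage score followed the same arrays as the adipocyte score, at 0.47 on wild-type replicate 3 and 0.54 on KO replicate 2 over 13 genes. It was -0.03 or lower on the others. Not every macrophage gene did so: Aif1 was highest on wild-type replicate 1, at 6.76, and stood at 6.37 on KO replicate 2. All 13 overlapped between genotypes, and their summed level ran from 11.90 to 12.82 in wild type and from 11.60 to 12.82 in KO. With the adipocyte score as a covariate the standard errors shrank, and the log2 fold change was -0.07 ± 0.20 (SE) for Fabp4, 0.45 ± 0.18 for Cd36 and 0.57 ± 0.29 for Lpl. None of the 3 passed in that fit (limma, adjusted p of 0.974, 0.787 and 0.805), although the unadjusted p of Cd36 was 0.0444. Without the array highest in fat markers in each genotype, a choice made after seeing the data, the values were -0.46, 0.38 and 0.63 on 2 arrays against 2, and none passed. The part of fat, capillaries or macrophages in these values was not tested beyond these fits.

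**Figure D2:**
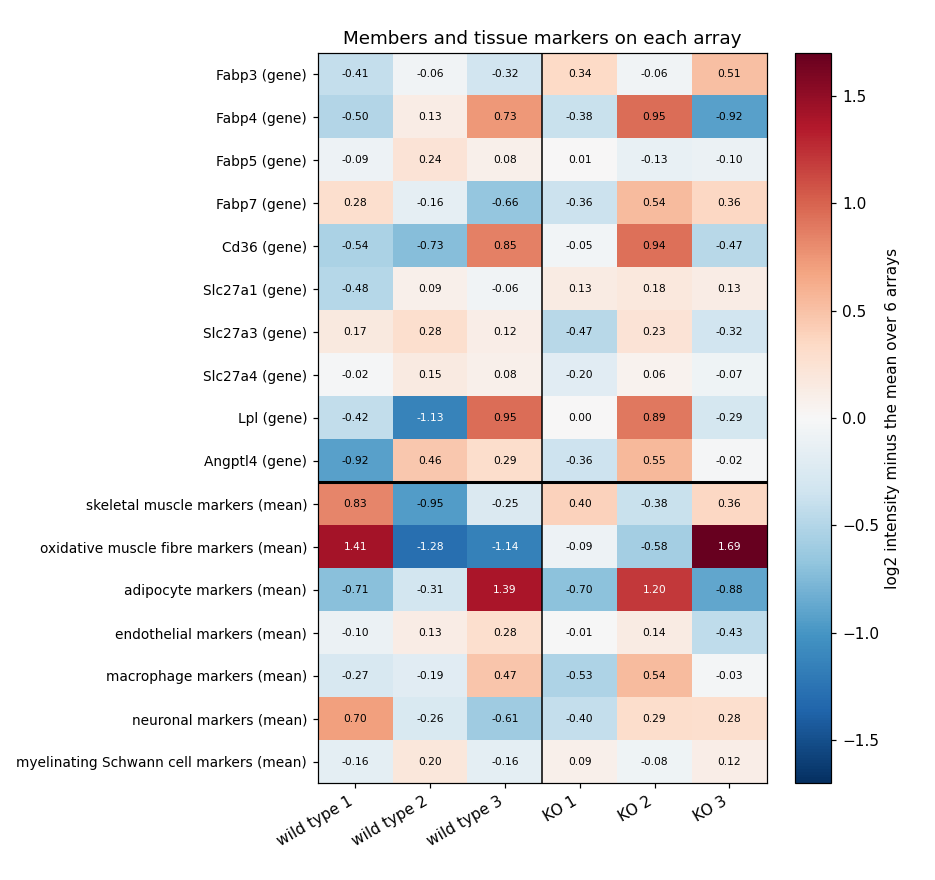
Log2 intensity of each gene minus its mean over the 6 arrays (upper rows), and the mean of the same quantity over each marker list (lower rows), for each array. Fabp4, Cd36 and Lpl are highest on wild-type replicate 3 and KO replicate 2, where the adipocyte markers reach 1.39 and 1.20.

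Patterns over the arrays were compared by the root mean square distance between log2 profiles centred on each gene's mean, over 6 arrays and among the 10499 brighter genes outside the set. For Cd36 the nearest genes were Plin4, a coat protein of fat cell lipid droplets, at 0.166, then Enpp3, Acss3, Slc22a4 and Apol6 up to 0.187, where the median distance of all compared genes was 0.688. For Fabp4 they were Tspan12 at 0.15, Bche, Inmt, the hormone-sensitive lipase gene Lipe, at 0.184, and Npy1r. For Lpl they were Adhfe1 at 0.262, Plbd1, Pirb, Xdh and Apol6. Within the set, Cd36 and Lpl lay 0.192 apart, and 5 genes of all those tested were nearer to Cd36 than Lpl was. These distances describe 6 arrays that differ in fat markers and are not a test.

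Angptl4, the secreted inhibitor of lipoprotein lipase, is known as a target of the peroxisome proliferator-activated receptors and of glucocorticoids. The 6 log2 intensities were 8.99, 10.37 and 10.20 on the wild-type arrays (9.85 ± 0.75, SD, n = 3) against 9.55, 10.46 and 9.89 on the KO arrays (9.97 ± 0.46, SD, n = 3). Wild-type replicate 1 was the lowest array and the others overlapped. The log2 fold change of 0.11 ± 0.39 (SE, 95% interval -0.81 to 1.04, limma adjusted p = 0.98) turned to -0.32 without wild-type replicate 1 and to -0.13 without KO replicate 2. Its nearest patterns were those of Cmtm3 at 0.181, Fstl3, Tent5b, Meox2 and Man1a, none of them in the fat marker list. The low arrays for Angptl4 were those high in muscle markers, and with the muscle score as a covariate its log2 fold change was 0.32 ± 0.17 (SE, limma adjusted p = 0.752).

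Slc27a1, which encodes the transport protein of muscle and fat known as FATP1, was the 1 gene whose groups did not overlap. The 6 log2 intensities were 10.11, 10.68 and 10.54 on the wild-type arrays (10.44 ± 0.30, SD, n = 3) against 10.73, 10.78 and 10.72 on the KO arrays (10.74 ± 0.03, SD, n = 3). The gap between the lowest KO and the highest wild-type array was 0.039, small beside the wild-type range of 0.57. The log2 fold change was 0.30 ± 0.16 (SE), 1.23-fold with a 95% interval of 0.94 to 1.61, and did not pass (limma adjusted p = 0.872). It was 0.13 without wild-type replicate 1, the array lowest in Slc27a1 and highest in muscle markers. With the muscle score as a covariate it was 0.37 ± 0.12 (SE, limma unadjusted p = 0.0192, adjusted p = 0.725).

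Slc27a3, an acyl-CoA synthetase of the same family, had log2 intensities of 7.49, 7.61 and 7.44 on the wild-type arrays (7.51 ± 0.08, SD, n = 3) against 6.86, 7.56 and 7.01 on the KO arrays (7.14 ± 0.37, SD, n = 3). KO replicates 1 and 3 lay below every wild-type array and KO replicate 2 lay among them. Its log2 fold change of -0.38 ± 0.19 (SE, 95% interval -0.83 to 0.08, limma adjusted p = 0.868) was -0.58 without KO replicate 2 and -0.23 without KO replicate 1. KO replicates 1 and 3 are also the arrays with the highest Fabp3, and they share low fat scores with wild-type replicate 1, where Slc27a3 was not low. Slc27a4, which encodes FATP4, was 9.49, 9.66 and 9.59 on the wild-type arrays against 9.31, 9.56 and 9.43 on the KO arrays. It gave a log2 fold change of -0.14 ± 0.12 (SE, limma adjusted p = 0.903), with a 95% interval of 0.742 to 1.11 of the wild-type level and values of -0.21 to -0.08 with each array left out. The interval leaves out a change of 1.5-fold in either direction.

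Fabp5, the epidermal-type binding protein gene, was also narrow, at 8.65, 8.97 and 8.82 on the wild-type arrays against 8.74, 8.60 and 8.63 on the KO arrays. The fitted log2 fold change was -0.15 ± 0.13 (SE, limma adjusted p = 0.901), with a 95% interval of 0.729 to 1.11 of the wild-type level, and it was -0.24 to -0.08 with each array left out. All 4 probe sets of Fabp5 had a lower mean in KO, from -0.19 to -0.11, and the RefSeq table lists a related copy of the gene, whose share in these signals was not tested.

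Fabp7 encodes the brain-type binding protein, a marker of radial glia, astrocytes and young cells of the Schwann lineage. The 6 log2 intensities were 9.55, 9.11 and 8.61 on the wild-type arrays (9.09 ± 0.47, SD, n = 3) against 8.90, 9.81 and 9.63 on the KO arrays (9.45 ± 0.48, SD, n = 3). KO replicates 2 and 3 and wild-type replicate 1 were high, and the groups overlapped. The fitted log2 fold change was 0.36 ± 0.31 (SE, 95% interval -0.37 to 1.08, limma adjusted p = 0.904). Leaving out wild-type replicate 3 gave 0.12, KO replicate 2 gave 0.17, wild-type replicate 1 gave 0.58 and KO replicate 1 gave 0.63. The arrays ordered differently from those of Fabp4, and the nearest patterns were neural: the glial potassium channel gene Kcnj10 at 0.102, Anks1b, Ntm, the glial phosphatase gene Ptprz1 at 0.132, and Fgf14, beside a median distance of 0.477.

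Neural markers were listed after this pattern was seen, and some of them moved with Fabp7 across the arrays. Snap25, a protein of neuronal synaptic vesicle release, was 11.63, 9.80 and 9.47 on the wild-type arrays against 9.74, 11.05 and 11.08 on the KO arrays. Prph, also in the neuronal list, went otherwise, at 7.46, 7.79 and 7.34 on the wild-type arrays against 7.47, 7.21 and 7.11 on the KO arrays. It was lowest on KO replicates 2 and 3, where Fabp7 was highest. Slc1a2, the glutamate transporter of astrocytes, was 9.58, 8.18 and 7.50 on the wild-type arrays against 7.72, 8.98 and 8.89 on the KO arrays. Other astrocyte genes went otherwise: Aqp4, the water channel, was highest on KO replicate 1 at 8.88, where Fabp7 was low. Slc1a3, another glutamate transporter, and Glul, the glutamine synthetase gene, were highest in wild type on replicate 3, at 8.87 and 11.89, where Fabp7 was lowest, although over all arrays both were highest on KO replicate 2, as Fabp7 was. The neuronal score over 11 genes was 0.70, -0.265 and -0.61 on the wild-type arrays against -0.405, 0.29 and 0.28 on the KO arrays, all 11 overlapped, and their summed level ran from 11.69 to 13.18 in wild type and from 11.84 to 12.75 in KO. With that score as a covariate Fabp7 stood at 0.27 ± 0.16 (SE, limma adjusted p = 0.85). Glial genes, also listed afterwards and including Kcnj10 and Ptprz1 from the nearest patterns above, so that their score gives no independent support, had scores over 10 genes of 0.38, -0.25 and -0.33 on the wild-type arrays against -0.32, 0.42 and 0.11 on the KO arrays. All 10 overlapped, with a summed level of 12.45 to 12.90 in wild type and 12.44 to 13.10 in KO, and the part of neural tissue in Fabp7 was not tested beyond the fit above. The myelinating Schwann score was -0.16 both on wild-type replicate 1, where Fabp7 was highest in wild type, and on wild-type replicate 3, where it was lowest. The score of 7 genes of non-myelinating or immature Schwann cells was -0.08, 0.28 and -0.31 on the wild-type arrays against 0.02, -0.01 and 0.11 on the KO arrays, lowest on wild-type replicate 3 as Fabp7 was and highest on wild-type replicate 2.

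**Figure D3:**
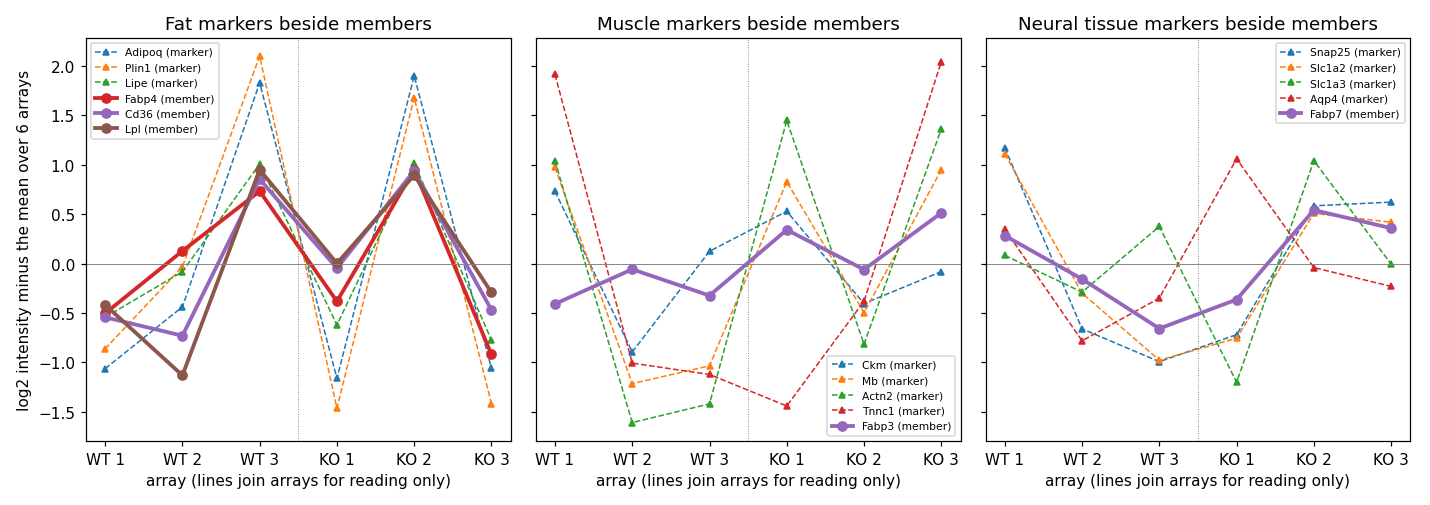
Log2 intensity minus the mean over 6 arrays for Fabp4, Cd36 and Lpl beside fat markers (left), Fabp3 beside muscle markers (middle) and Fabp7 beside neural markers (right), for the 3 wild-type (WT) and 3 KO arrays. Members are solid lines and markers dashed; Fabp3 is lowest on wild-type replicate 1, where the muscle markers shown are high. Ckm, Tnnc1, Adipoq, Plin1, Slc1a2, Slc1a3 and Aqp4 were picked after their values were seen; in the right panel Snap25 and Slc1a2 run with Fabp7, Slc1a3 departs from it on wild-type replicate 3 and Aqp4 on KO replicate 1.

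Relatives of these genes were read from 5 lists of known function, chosen with earlier results of these data known. In no list did any gene pass an adjusted p of 0.05 in limma. Before adjustment 3 genes had p under 0.05, all among the 10 receptor targets described last, beside 5.83% of all genes. Of 10 other lipid-binding protein genes 6 had a higher and 4 a lower mean, with a median of 0.06. Pmp2, the myelin P2 protein of Schwann cells and a close relative of Fabp4, was 11.73, 11.71 and 11.80 on the wild-type arrays against 11.73, 11.74 and 12.30 on the KO arrays. KO replicate 3 alone stood out, and the log2 fold change of 0.18 ± 0.18 (SE, limma adjusted p = 0.917) was -0.008 without it. In the RefSeq gene order of chromosome 3, Fabp5, Pmp2, Fabp9, Fabp4 and Fabp12 follow each other, with unlike spreads over the arrays: Fabp4 ranged over 1.87 and Pmp2 over 0.59 on the log2 scale across arrays. Fabp1, the dim liver-type gene, had all 3 KO arrays above wild type with a log2 fold change of 0.60 ± 0.30 (SE, adjusted p = 0.867). KO replicate 2, at 5.92, stood well above the other 5 arrays, and the value was 0.23 without it. Crabp2, which carries retinoic acid, stood at -0.48 ± 0.25 (SE, adjusted p = 0.868) with all 3 KO arrays below wild type, and at -0.21 without wild-type replicate 1. Fabp9 stood at 0.35 ± 0.17 (SE) and at 0.22 without KO replicate 2. Rbp7, of fat and capillary cells, stood at 0.42 ± 0.32 (SE), and at 0.096 without wild-type replicate 1, 0.24 without KO replicate 1 and 0.68 without wild-type replicate 3.

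Partners of lipoprotein lipase had a higher mean in 9 of 11 genes, with a median of 0.04, and all 11 overlapped between genotypes. Gpihbp1, the capillary protein that holds the lipase at the vessel wall, was 7.84, 7.42 and 8.31 on the wild-type arrays against 8.32, 8.73 and 8.07 on the KO arrays. KO replicates 1 and 2 lay above wild type, the first barely, and the log2 fold change of 0.52 ± 0.26 (SE, limma adjusted p = 0.867) did not pass. With replicate 2 of wild type left out it was 0.30, and with replicate 2 of KO left out 0.34. Apoa5 and the endothelial lipase gene Lipg, both dim, stood at 0.21 ± 0.20 and 0.14 ± 0.16, and at 0.02 without KO replicate 3 and -0.02 without wild-type replicate 2. The other transport protein genes Slc27a2, Slc27a5 and Slc27a6 stood at 0.15 ± 0.12, 0.11 ± 0.17 and 0.23 ± 0.23, all 3 overlapping. Of 9 further genes of fatty acid entry and activation 3 had a higher and 6 a lower mean, with a median of -0.08, and those with the smallest p were Mfsd2a at -0.18 ± 0.17, Acsl4 at -0.14 ± 0.14 and Got2 at 0.18 ± 0.18.

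Targets of the peroxisome proliferator-activated receptors outside uptake, which share that control with Fabp3, Cd36, Lpl and Angptl4 by general knowledge, had a higher mean in 7 of 10 genes and a median of 0.17. In 3 of 10 the groups did not overlap, all with KO higher, as in 4.08% of all genes. The same 3 met the study's criterion, as did 1.19% of all genes. Another 3 had a lower mean in KO, down to -0.42. Since the list was chosen with earlier results known, these counts describe it and are not a test. Pdk4, whose kinase inhibits pyruvate dehydrogenase, was 11.57, 11.44 and 11.35 on the wild-type arrays against 12.96, 11.84 and 12.45 on the KO arrays, with a log2 fold change of 0.97 ± 0.27 (SE, limma adjusted p = 0.85). Among the KO arrays replicate 2 was the lowest in Pdk4, as in Fabp3. Fgf21, dim with means of 5.69 in wild type and 6.29 in KO, stood at 0.60 ± 0.19, and Acot2 at 0.86 ± 0.29 (SE, limma adjusted p = 0.85 for both). These 2 genes also had KO replicate 2 as the lowest KO array, whereas Cd36, Lpl and Angptl4 had it as the highest.

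**Figure D4:**
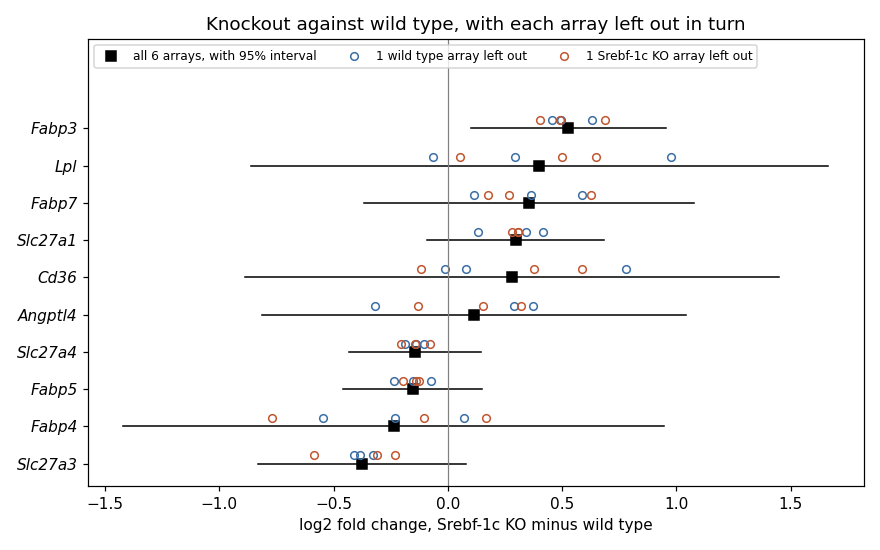
Log2 fold change of each gene in KO against wild type (squares, lines give the 95% interval from limma on all 6 arrays), with the value when 1 array is left out (open circles, by genotype of that array). For Fabp3 alone the interval, 0.10 to 0.95, lies off 0 before adjustment; the values of Fabp4, Cd36, Lpl and Angptl4 fall on both sides of 0 as arrays are left out.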

How the data were processed

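RNA of 6 whole sciatic nerve samples was measured on Affymetrix whole-transcript arrays, per the labels. The authors deposited 1 RMA intensity per probe set and array, unlogged and spanning 3.67 to 23738, handled in TAC and the Partek software per the series' design text. The submitters' processing notes name mm8, and no version of the software was found in the labels. Samples were grouped by title and genotype, although the source label says wild type for KO samples too.

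Log2 was taken with no pseudocount and no dim genes were dropped. Of 41077 probe sets, 23521 carry 1 symbol in the platform annotation, giving 22180 genes (brightest probe set each). Median intensity was 115.5 to 122.6 per array; the number of arrays limits precision. Each gene was fitted with limma 3.58.1 (R 4.3.3), KO minus wild type, two-sided, with Benjamini-Hochberg adjustment over all 22180 genes. The fit was tested on simulated data. Alternatives were a replicate block, the methods' analysis of variance, an intensity trend, array weights, filters on dim genes, 2 normalizations, probe set means, marker scores as covariates, other limits and leaving out each array. Named are the 10 genes, Srebf1 and 7 relatives chosen by name (Acsl1, 1 of them, had no probe set of its own symbol). Also named are the 3 with the smallest p of each pathway list and the 3 brightest markers of a list. The 5 nearest patterns are named for genes spanning at least 1 on the log2 scale. Ckm, Tnnc1, Tnnt1, Myh7, Kdr, Adipoq, Plin1, Slc2a4, Gpd1, Aif1, Prph, Slc1a2, Slc1a3 and Aqp4 were picked after their values were seen. The members and lists were chosen with earlier results of these data known.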

Additional observations from a re-analysis of the deposited data

How the results depend on the processing

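With 3 arrays per genotype, leaving out 1 array turned the direction of 4 of the 10 genes, and the number of arrays limits what can be called. No fit called any of the 10 genes at an adjusted p of 0.05, nor at 0.10. The count meeting the study's criterion was 0 in every fit with all arrays and equal weights. Of all genes 1.19% met it in the main fit, and 0.622% to 1.4% over those fits. With array weights the count was 1 (Fabp3, where 1.62% of all genes met it). With each array left out it was 0 to 1. Fabp3 met it without wild-type replicate 2 or KO replicate 2, where 1.63% and 2.49% did. Lpl met it without wild-type replicate 3, where 2.2% did. The count was 2 without the array highest in fat markers in each genotype (Fabp3 and Slc27a3, where 3.69% of all genes met it). The median log2 fold change was -0.12 to 0.31 with each array left out and -0.061 with array weights, and -0.011 without the arrays highest in fat markers (a choice made after seeing the data, as were the neuronal and oxidative fibre scores). Signs turned with array weights for Cd36 (-0.093) and Angptl4 (-0.028), with the oxidative fibre score for Fabp4 (0.085), without the arrays highest in fat markers for Fabp7 (-0.065), and with the mean of probe sets for Slc27a2 (-0.11) and Got2 (-0.024). With each array left out the log2 fold change was -0.77 to 0.17 for Fabp4, -0.12 to 0.78 for Cd36, -0.064 to 0.97 for Lpl, -0.32 to 0.37 for Angptl4, -0.0082 to 0.28 for Pmp2, -0.031 to 0.40 for Slc27a6 and -0.017 to 0.22 for Lipg. The cause was not tested. Fabp3, Fabp5, Slc27a1, Slc27a3 and Slc27a4 kept their direction in every alternative run, although Slc27a3 was left out with the dimmer 50% of genes. The mean of both probe sets gave 0.36 for Fabp3 (limma unadjusted p = 0.062). The labels do not say that replicate numbers pair the samples. Deviations of same-numbered arrays correlated at 0.117, 0.0117 and -0.233 over genes, and not every array correlated best with its own number. Since tissue content also varied between arrays, these correlations cannot settle whether the samples were paired. The replicate block gave 0 of 10 genes past an adjusted p of 0.05 (smallest 0.815) and 0 past the study's criterion, with 288 of all genes meeting it against 265.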
